A study of Mus musculus with 6 samples.

Results

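The metalloproteases and their TIMP inhibitors were examined by RNA-seq in primary osteoblasts lacking the 3 Tet genes and in wild-type osteoblasts. Members were chosen by symbol as every listed Mmp, Adam, Adamts and Timp gene with a number, together with Bmp1, Tll1, Mme and Reck, without the Adamts-like genes. These are 53 of the 16455 genes in the count table. TCKO cells (triple conditional knockout; labelled Tet KO) came from Prx1-Cre mice homozygous for floxed alleles of Tet1 (fl/fl), Tet2 (fl/fl) and Tet3 (fl/fl), and the WT cells came from WT mice. Whether WT pups carried the Cre or a floxed allele is not stated. Prx1-Cre is active in limb and skull mesenchyme, so cells of other origin in a culture keep their Tet genes. The strain was labelled C57/B6 and the pups were 3 days old in both groups. Cells were released from parietal bone with collagenase and dispase, cultured for 3 days without an osteogenic medium being stated, and sequenced from total RNA, with 3 libraries per genotype. No animal, litter or culture is given for a library, so a p-value here reflects the spread among these libraries alone, and that spread may be technical.

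Matrix metalloproteinases (MMPs) are zinc enzymes that cut collagens and other matrix proteins outside the cell. ADAMs are membrane-bound relatives that mostly shed cell surface proteins, and ADAMTS enzymes are secreted relatives that trim procollagens or cut proteoglycans of the aggrecan family. Tolloid-like enzymes remove the C-terminal propeptide of procollagen. TIMPs are secreted inhibitors that occupy the active site of these enzymes, and RECK is an inhibitor anchored in the membrane. In the growing skeleton such enzymes remove cartilage, shape osteoid and let vessels enter. Most are made as inactive pro-forms, so a transcript level is not an activity.

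Library totals ran from 8119261 to 10657824 reads, and 1 CPM (counts per 1000000 reads, after TMM scaling) stood for 8.15 to 10.6 reads. Tet1 was at 3.98 to 6.52 CPM in TCKO and 8.85 to 11.0 CPM in WT. Tet2 was at 9.82 to 14.2 CPM in TCKO and 13.6 to 15.3 CPM in WT, and Tet3 at 57.4 to 66.3 CPM in TCKO and 41.5 to 46.3 CPM in WT. The counts take in whole genes, exons outside the floxed parts included, and cannot serve as a check on the labels. Of the osteoblast markers Bglap and Dmp1 are not listed, and the 10 listed markers summed to 17891 to 27457 CPM in TCKO and 39459.6 to 43727 CPM in WT. Most of that sum was Col1a1, Col1a2 and Sparc. By the FDR rule given below, 5 of the 8 tested were lower, against 8.9% of all genes tested. The other 3 did not pass (edgeR FDR = 0.0792 for Col1a2, 0.166 for Sp7 and 0.823 for Ibsp). By the same rule 12 of the 12 chondrocyte markers were lower in TCKO, against 8.9% of all genes tested. With replicates 1 and 2 of each genotype summed into 1 library, 7 of them were lower, against 1.08% of all genes in that fit. The markers summed to 788 to 1069.5 CPM in TCKO and 6667 to 8731 CPM in WT, most of it Col2a1. Macrophage transcripts were present in every library, and of the neutrophil markers only S100a8 is listed, at or below 1.88 CPM. In bulk cultures, fewer cells of a type and less RNA per cell cannot be told apart. In both genotypes replicate 3 stood apart from a closely similar pair, replicates 1 and 2, so values are given library by library for the genes that matter most.

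Of the 53 genes, 46 passed the filter on low counts, and 7 were set aside (Adam1a, Adam4, Adam5, Adam32, Adamts8, Adamts17 and Mmp1b). A member passed, and is said to have risen or fallen, where its FDR (the Benjamini-Hochberg adjusted p of the edgeR quasi-likelihood test, over all genes tested) was under 0.05. By this rule 12 of the 46 were higher in TCKO (26.1%, against 9.44% of all 13630 genes tested) and 10 were lower (21.7%, against 8.9% of all genes tested). With a fold above 2 as well, 7 were higher (15.2%, against 3.01% of all genes) and 5 were lower (10.9%, against 3.06%). The 3 TCKO and 3 WT values did not overlap for 28 of the 46 (60.9%, against 38.2% of all genes). The median log2 fold change of the 46 was -0.19, against 0.00 for all genes tested, with 21 members above 0 and 25 below. With the replicate number as a block, 8 members were lower with a fold above 2, against 5 without it (3.57% of all genes with the block). In fits that left out 1 library, whose FDR is given below in brackets after the library, leaving out WT replicate 3 also gave 8 (3.7% of all genes in that fit). Leaving out WT replicate 2 gave 6 members lower at any fold, against 10 (4.15% of all genes in that fit). With replicates 1 and 2 of each genotype summed into 1 library, 4 members remained higher (Adamts6, Adamts14, Adamts16 and Mmp10) and 0 were lower, of 48 tested, against 1.36% of all genes higher and 1.08% lower in that fit. At an unadjusted p under 0.05, 11 members were higher and 9 lower there, against 9.53% and 8.8% of all genes. Of the 4 that remained higher, Mmp10 and Adamts16 passed the low-count filter only through their TCKO libraries. DESeq2 on all 6 libraries called 13 members higher and 13 lower, against 9.16% and 8.73% of all genes.

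**Figure D1:**
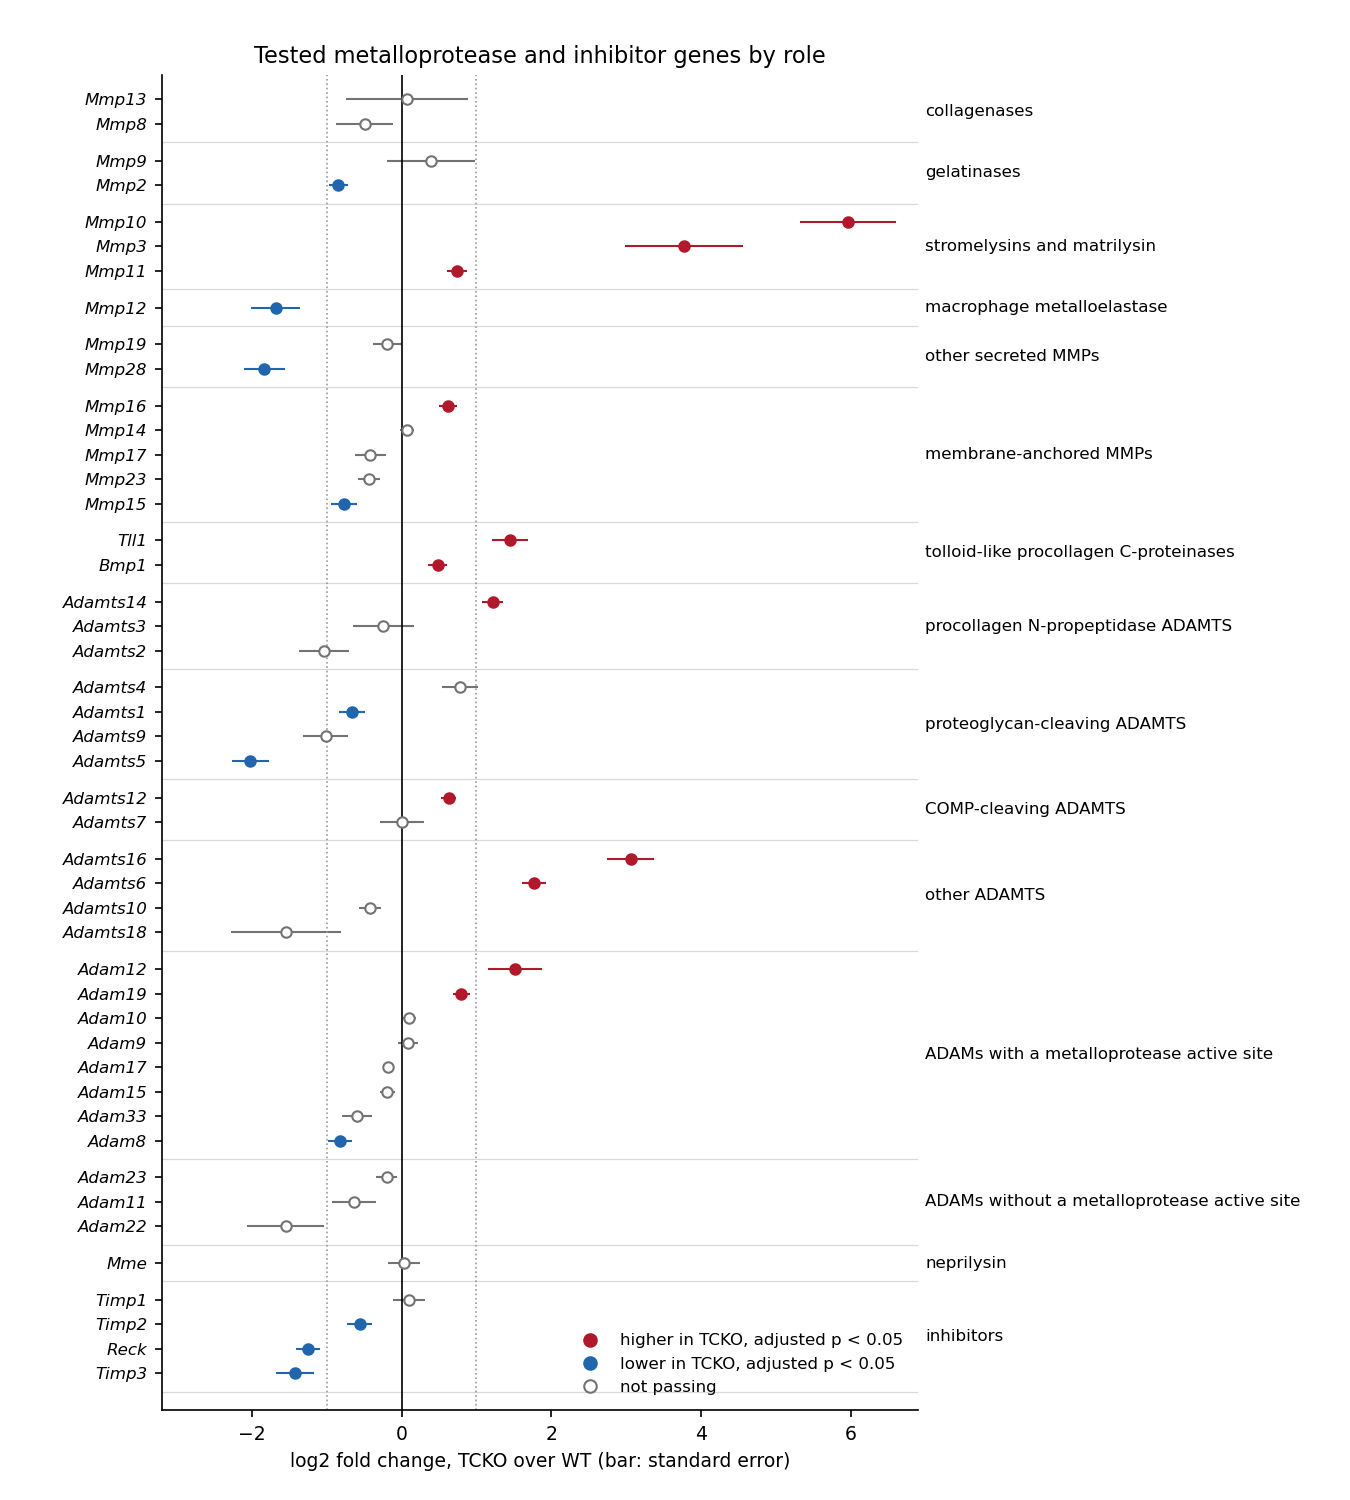
Log2 fold change of TCKO over WT for the 46 tested genes, grouped by role, with the standard error as a bar and dotted lines at a fold of 2. Filled red points passed as higher (12) and filled blue points as lower (10). The stromelysins and tolloid-like enzymes lie to the right of 0, and 3 of the 4 inhibitors lie to the left of it.

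The largest log2 fold changes of the 46 were those of Mmp10 and Mmp3, stromelysins, which are broad matrix-degrading MMPs that also activate other pro-MMPs. Both passed the low-count filter only through their TCKO libraries. Mmp10 (stromelysin-2) had 10.5, 8.34 and 4.09 CPM in TCKO, against 0.115, 0.190 and 0 CPM in WT. These are 200 reads over the 3 TCKO libraries and 3 reads over the 3 WT libraries. The read ratio after scaling was 70.1 (95% interval 23.7 to 343, exact binomial, covering counting error only), and the fitted log2 fold change was 5.97 ± 0.64 (SE, edgeR FDR = 0.000904). Mmp10 was thus counted in every TCKO library and near the limit of detection in WT, with the lowest TCKO value in replicate 3. Mmp3 (stromelysin-1) had 20.2, 14.6 and 3.09 CPM in TCKO, against 0.805, 0.663 and 1.32 CPM in WT, or 330 against 25 reads. Its log2 fold change was 3.77 ± 0.79 (edgeR FDR = 0.0221), and the read ratio was 13.9 (9.24 to 21.8). The groups did not overlap, but the difference in log2(CPM + 0.25) was 4.15 over replicates 1 and 2 and 1.09 in replicate 3. The call on Mmp3 was lost without TCKO replicate 2 (FDR = 0.0589), WT replicate 1 (0.093), WT replicate 2 (0.0995) or WT replicate 3 (0.0742), and limma-voom gave 0.157. Mmp11 (stromelysin-3), which acts weakly on most matrix substrates, had 24.9, 29.9 and 30.8 CPM in TCKO and 18.7, 15.2 and 17.5 CPM in WT, a log2 fold change of 0.74 ± 0.13 (edgeR FDR = 0.00668). The 3 genes thus rose by very different amounts, and the highest by count in WT rose least.

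Mmp10 and Mmp3 are close relatives, and 8.37% of the 50-base stretches of Mmp10 exons also occur in Mmp3, so a small share of reads could be counted under the wrong one of the pair. They also lie on the same chromosome with no listed Mmp gene between them, though genes that are not listed may lie there. The table lists 6 Mmp genes of a cluster on chromosome 9 that spans 296 kb in GRCm38, in the order Mmp13, Mmp12, Mmp1b, Mmp3, Mmp10 and Mmp8. Mmp10 (chr9:7502352-7510240, plus strand) starts 46.4 kb after the end of Mmp3 (chr9:7445822-7455975, plus strand). Mmp1b, a relative of the interstitial collagenase on the minus strand, lies 57.8 kb before Mmp3 and was set aside by the low-count filter. It had 13, 10 and 6 reads in TCKO and 1, 4 and 0 reads in WT, a read ratio of 6.10 (2.34 to 20.2). In the fit without the filter Mmp1b had a log2 fold change of 2.54 and did not pass (edgeR FDR = 0.0509), while it passed without TCKO replicate 3 (0.0292) and with replicates 1 and 2 only (0.00176). Mmp1b, Mmp3 and Mmp10, which follow each other among the listed Mmp genes, were thus each higher in every TCKO library than in any WT library. Of all genes tested, 38.2% had no overlap between the genotypes in one direction or the other. For Mmp1b the lack of overlap rests on 6 reads in TCKO replicate 3 against 4 in WT replicate 2. Of the 50-base stretches of Mmp1b, 19.7% also occur in Mmp1a, which is not listed, and 157 exon bases of Mmp1b overlap Mmp12 on the opposite strand.

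The other genes of the cluster were not called higher. Mmp12, the macrophage metalloelastase, begins 61.0 kb after Mmp13 and had 2.87, 2.82 and 1.66 CPM in TCKO, against 8.62, 9.95 and 4.90 CPM in WT. Its log2 fold change was -1.68 ± 0.33 (edgeR FDR = 0.011), every TCKO value lay below every WT value, and the call was lost without WT replicate 2 (FDR = 0.0534). Mmp13 (collagenase-3), the collagenase of osteoblasts and hypertrophic chondrocytes, had 259.6, 273 and 23.8 CPM in TCKO and 190.1, 206 and 133 CPM in WT. TCKO replicates 1 and 2 were above all 3 WT libraries and TCKO replicate 3 far below them, and it did not pass (log2 fold change 0.07 ± 0.81, edgeR FDR = 0.964). The sign turned to -0.25 without TCKO replicate 1, -0.31 without TCKO replicate 2 and -0.10 without WT replicate 3, and to -0.38 with the replicate block. Mmp8, the neutrophil collagenase, was at 0.982 to 1.66 CPM in TCKO and 1.33 to 2.39 CPM in WT (log2 fold change -0.49 ± 0.38, edgeR FDR = 0.412).

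Mmp12 is known from macrophages, so the macrophage markers are given beside it. Their sum was 560, 598 and 162 CPM in TCKO and 797, 804 and 399 CPM in WT, and 11 of 12 were listed, all above 0 in every library (Adgre1 is not listed). None of the 11 passed (0 called), with a median log2 fold change of -0.87. At an unadjusted edgeR p under 0.05, 3 were lower (16.3% of all genes), and DESeq2 called 3 lower (8.73% of all genes). With the replicate block, 7 of the 11 were lower, against 11.9% of all genes in that fit. The part of these cells in the value of Mmp12 was not tested.

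**Figure D2:**
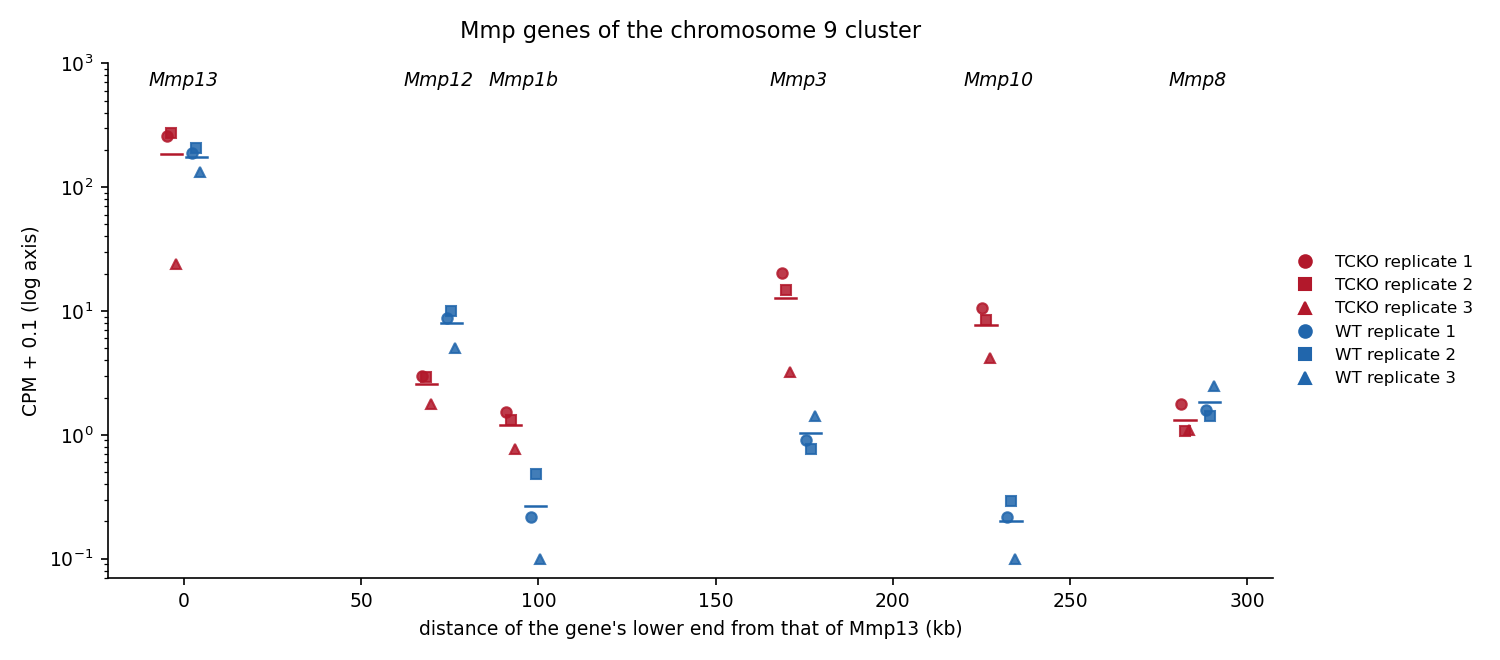
CPM + 0.1 (log axis) of the 6 listed Mmp genes of the chromosome 9 cluster in each library, placed by the distance in kb of each gene's lower end from that of Mmp13, TCKO in red and WT in blue, with a line at the group mean. Red points lie above blue ones for Mmp1b, Mmp3 and Mmp10 and below them for Mmp12, while Mmp13 and Mmp8 overlap.

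The promoter windows of the 3 changed genes of the cluster are shown because the targeted enzymes act on methylated CpG. Each runs from 250 bases before to 50 bases after the RefSeq start in GRCm38.p6, 5′ to 3′ on the plus strand. Capitals mark each CpG and each match to the AP-1 motif TGACTCA, read on both strands (TGAGTCA on the other). The windows are chr9:7502092-7502391 for Mmp10, chr9:7445572-7445871 for Mmp3 and chr9:7344147-7344446 for Mmp12.
Mmp10: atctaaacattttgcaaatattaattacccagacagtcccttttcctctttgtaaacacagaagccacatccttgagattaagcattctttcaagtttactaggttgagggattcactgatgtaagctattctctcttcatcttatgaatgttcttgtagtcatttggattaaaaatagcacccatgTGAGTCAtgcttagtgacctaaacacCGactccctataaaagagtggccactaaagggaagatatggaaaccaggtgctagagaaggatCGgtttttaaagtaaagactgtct
Mmp3: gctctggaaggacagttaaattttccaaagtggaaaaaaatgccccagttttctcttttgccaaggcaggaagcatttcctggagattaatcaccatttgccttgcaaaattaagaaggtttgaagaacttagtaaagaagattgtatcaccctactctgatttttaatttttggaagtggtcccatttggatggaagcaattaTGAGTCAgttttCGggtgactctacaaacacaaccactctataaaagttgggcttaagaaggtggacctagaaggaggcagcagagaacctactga
Mmp12: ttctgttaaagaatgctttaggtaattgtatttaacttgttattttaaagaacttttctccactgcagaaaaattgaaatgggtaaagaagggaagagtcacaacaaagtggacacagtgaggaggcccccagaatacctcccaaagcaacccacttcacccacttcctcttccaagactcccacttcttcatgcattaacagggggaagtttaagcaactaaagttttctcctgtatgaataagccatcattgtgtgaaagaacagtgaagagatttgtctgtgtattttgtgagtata
These windows held 2, 1 and 0 CpG. The Mmp10 window had 1 motif match, beginning at position -63 from the start, and the Mmp3 window 1 match at -46, while the Mmp12 window had none of these letters. Mmp13 and Mmp1b had a match as well, at -35 and -93. A match describes the letters of a window and is not evidence of binding.

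Across the family, 33 of the 53 genes had a promoter window. The ratio of observed to expected CpG was at least 0.6, called CpG-rich here, in 17 of the 33 (51.5%), against 74.4% of the 9420 tested genes with a window and 36.5% of all 27025 genes with one. Among members that rose, 2 of 7 windows were CpG-rich, and among members that fell, 5 of 8. Adamts14 had the most CpG, 44, and it rose, as did Tll1 with 12. TGACTCA or its complement was found in 5 of 33 windows (15.2%), against 3.49% of tested genes and 5.17% of all genes. The 5 were Mmp10, Mmp3, Mmp13, Mmp1b and Adam19, so 4 of them lie in the chromosome 9 cluster. The RUNX core TGTGGT, read on both strands, was found in 6 of 33 windows (18.2%), against 11.8% of tested genes and 16.9% of all. None of the 7 members that rose or the 8 that fell with a window held it, and the other members that passed had no window to read. At the share of tested genes, few such matches would be found among so few windows. DNA methylation was not measured in the files used here.

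**Figure D3:**
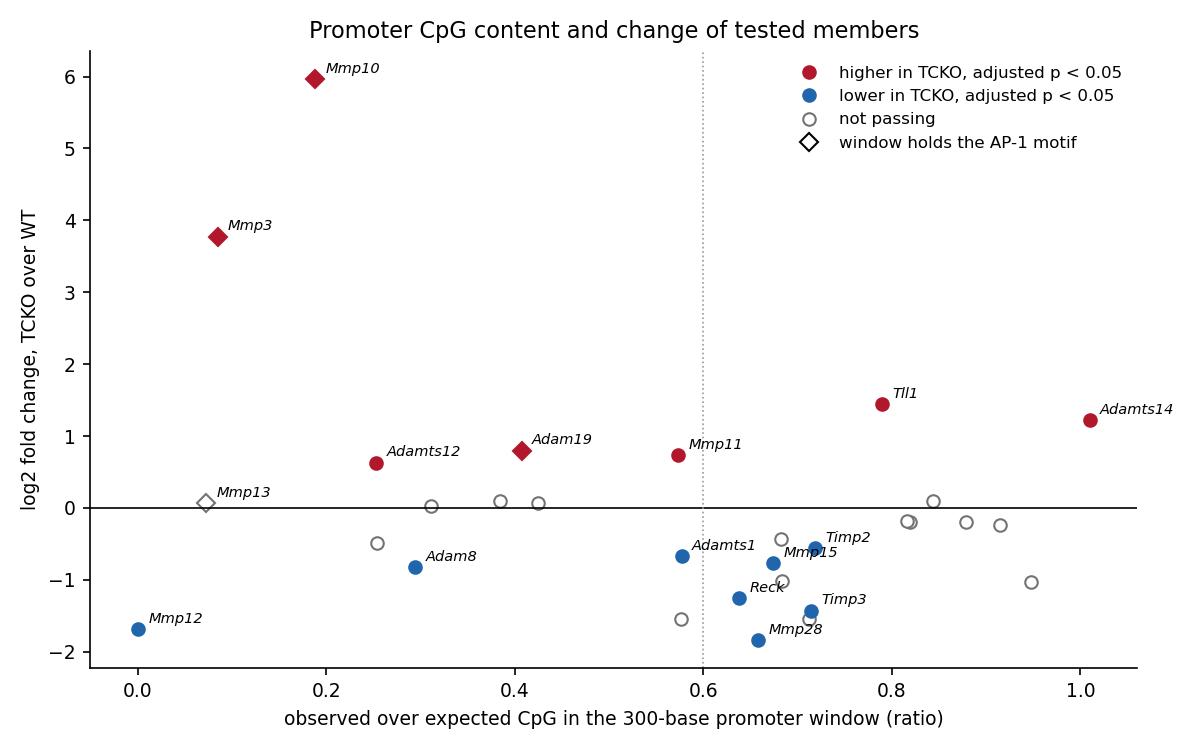
Observed over expected CpG in the 300-base promoter window (horizontal axis, ratio, dotted line at 0.6) against the log2 fold change of TCKO over WT for the tested members with a window. Red points passed as higher, blue as lower, open ones did not pass, and diamonds hold the AP-1 motif. Mmp10 and Mmp3 are at the left with 2 and 1 CpG, and Reck, Timp3, Timp2, Mmp28 and Mmp15 are the 5 blue points right of the line.

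Of 4 inhibitors tested, 3 fell (Timp3, Reck and Timp2), against 8.9% of all genes tested, and Timp1 did not pass. With replicates 1 and 2 summed none of the 3 passed (edgeR FDR = 0.0696 for Reck, 0.0812 for Timp3 and 0.39 for Timp2), where 1.08% of all genes were lower. Timp3, which binds the matrix and also inhibits ADAM17 and the aggrecan-cleaving ADAMTS enzymes, had 796, 761 and 891 CPM in TCKO, against 1648, 1775 and 3167 CPM in WT. Every WT value was above every TCKO value, with the widest gap in replicate 3, and the log2 fold change was -1.43 ± 0.25 (edgeR FDR = 0.0108). The counting may not have used strand, and 1733 exon bases of Timp3 overlap Syn3 on the opposite strand. Syn3 itself was at 0.884 to 0.995 CPM in TCKO and 0.853 to 1.61 CPM in WT, and how many Timp3 reads the counting left out over these bases is not known. Reck, the membrane-anchored inhibitor, had 35.3, 35.8 and 39.6 CPM in TCKO, against 97.7, 99.5 and 65.8 CPM in WT, a log2 fold change of -1.25 ± 0.16 (edgeR FDR = 0.00217). The TCKO libraries were close to each other and WT replicate 3 was the nearest to them.

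Timp2, which besides inhibiting MMPs is needed for the activation of pro-MMP2 by MMP14, had 1249.6, 1247 and 1842 CPM in TCKO, against 2231, 2236 and 1934 CPM in WT. The groups did not overlap, but the difference in log2(CPM + 0.25) was -0.84 over replicates 1 and 2 and -0.07 in replicate 3. Its log2 fold change of -0.56 ± 0.16 passed narrowly (edgeR FDR = 0.0484) and gave 0.0558 with the replicate block. The call was lost without TCKO replicate 1 (0.157), TCKO replicate 2 (0.155), WT replicate 1 (0.15), WT replicate 2 (0.155) or WT replicate 3 (0.0573), and held without TCKO replicate 3. Timp1, an inhibitor of secreted MMPs, had 787, 802 and 1072 CPM in TCKO and 694, 685 and 1102 CPM in WT. The groups overlapped (log2 fold change 0.10 ± 0.22, edgeR FDR = 0.784), and the sign turned without TCKO replicate 3 (-0.06), WT replicate 1 (-0.01) or WT replicate 2 (-0.02). Timp4 is not listed.

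The promoters of the 2 inhibitors that fell by more than 2-fold are shown for contrast with the cluster. The windows are chr4:43875280-43875579 for Reck and chr10:86300162-86300461 for Timp3, both on the plus strand of GRCm38.p6, with the same marks.
Reck: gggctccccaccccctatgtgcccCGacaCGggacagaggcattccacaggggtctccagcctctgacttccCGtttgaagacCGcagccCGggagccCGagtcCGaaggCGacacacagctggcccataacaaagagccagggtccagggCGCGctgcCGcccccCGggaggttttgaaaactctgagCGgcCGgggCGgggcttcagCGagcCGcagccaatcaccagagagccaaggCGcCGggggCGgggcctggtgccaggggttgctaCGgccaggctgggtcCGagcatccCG
Timp3: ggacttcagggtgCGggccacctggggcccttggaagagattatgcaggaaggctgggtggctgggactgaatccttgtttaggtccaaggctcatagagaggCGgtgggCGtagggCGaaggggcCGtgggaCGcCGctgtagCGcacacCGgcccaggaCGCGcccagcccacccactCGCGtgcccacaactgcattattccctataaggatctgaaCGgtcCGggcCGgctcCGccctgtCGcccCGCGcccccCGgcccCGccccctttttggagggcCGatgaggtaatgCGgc
They held 23 and 24 CpG and no match to TGACTCA or TGTGGT on either strand.

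To compare levels between genes, counts were also scaled per kb of exon (RPKM). On that scale Timp1 was the most abundant member in both genotypes (999 ± 181 RPKM in TCKO and 931 ± 268 RPKM in WT, SD, n = 3), followed by Timp2 and Mmp2. This order, and the shares and ratios below, depend on the merged exon lengths used (888 bases for Timp1, 3896 for Timp2 and 8144 for Timp3). By CPM, Timp2 was above Timp1 in every library. The 3 TIMPs summed to 1304, 1317 and 1789.6 RPKM in TCKO and 1557, 1563 and 2126 RPKM in WT. Timp1 made up 67.9, 68.6 and 67.5% of that sum in TCKO and 50.2, 49.3 and 58.4% in WT. Timp3 made up 7.50, 7.09 and 6.11% in TCKO and 13.0, 13.9 and 18.3% in WT. Neither of these shares overlapped between the genotypes. Timp2 made up 24.6, 24.3 and 26.4% in TCKO and 36.8, 36.7 and 23.4% in WT, which overlapped, with the TCKO share the higher one in replicate 3.

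The 16 listed MMPs summed to 559, 567 and 369.8 RPKM in TCKO and 736, 727 and 613 RPKM in WT, without overlap. The ratio of the TIMP sum to the MMP sum was 2.33, 2.32 and 4.84 in TCKO and 2.12, 2.15 and 3.47 in WT. Replicate 3 had the highest ratio in both genotypes, and the ranges overlapped, while the TCKO ratio was the higher one at each of the 3 replicate numbers. Mmp2 and Mmp14 together gave 69.2, 68.3 and 82.0% of the MMP sum in TCKO and 80.6, 79.8 and 82.7% in WT. Mmp13 gave 17.4, 18.0 and 2.40% in TCKO and 9.66, 10.6 and 8.09% in WT, so TCKO replicate 3 differed in make-up from the other TCKO libraries mainly in this gene.

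**Figure D4:**
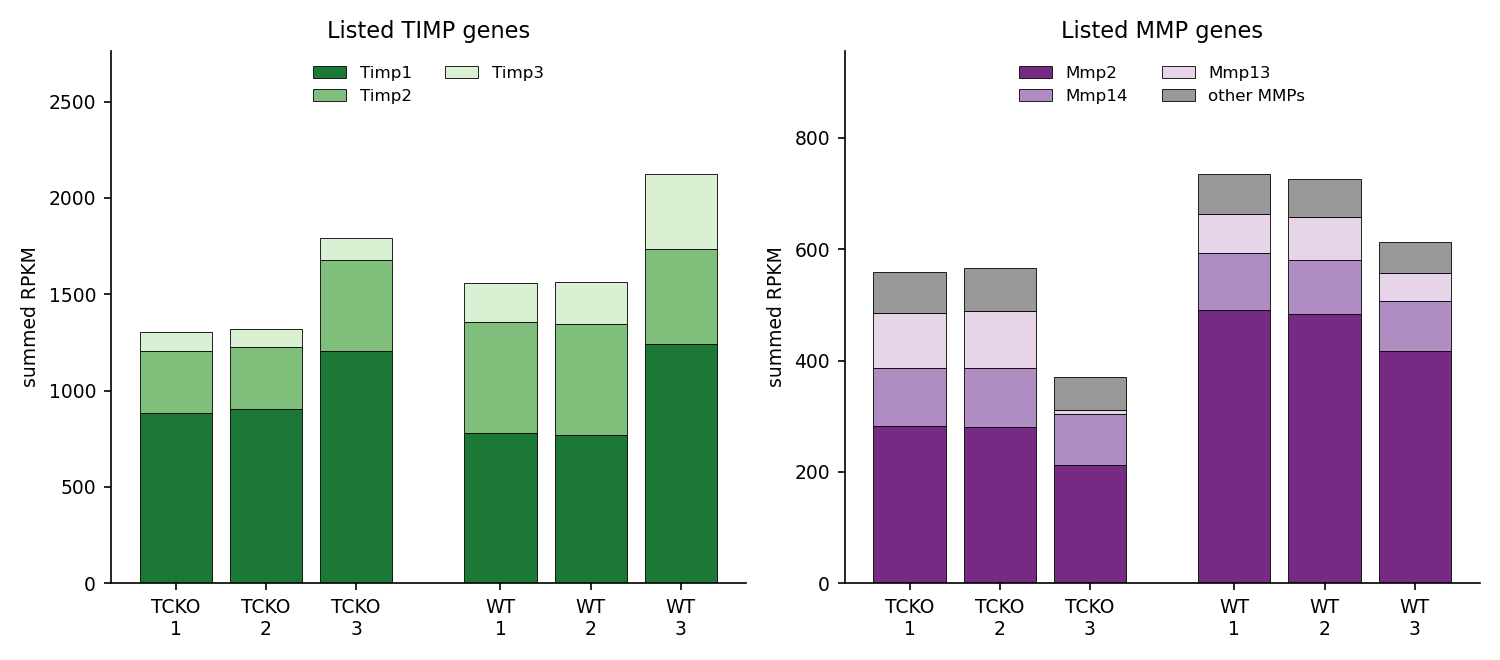
Summed RPKM of the 3 listed TIMP genes (left) and of the 16 listed MMP genes (right) in each library, TCKO before WT, split by gene. The Timp1 segment fills 67.5 to 68.6% of the TIMP bar in TCKO and 49.3 to 58.4% in WT, and the Mmp13 segment is nearly gone in TCKO replicate 3.

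Among the other MMPs, Mmp2 (gelatinase A), the most abundant MMP here and a cleaver of denatured collagen, fell. It had 953, 944 and 719 CPM in TCKO, against 1653, 1632 and 1408 CPM in WT, a log2 fold change of -0.84 ± 0.13 (edgeR FDR = 0.00358). The groups were well apart and replicate 3 was the lowest in each. Mmp14, the membrane-anchored activator of pro-MMP2 that is needed for normal bone growth in mice, had 624, 637 and 536 CPM in TCKO and 609.8, 571 and 534 CPM in WT. The groups overlapped and it did not pass (log2 fold change 0.07 ± 0.09, edgeR FDR = 0.657). Mmp9 (gelatinase B), an enzyme of osteoclasts and neutrophils, was low, at 4.20, 6.99 and 2.21 CPM in TCKO and 1.38, 2.75 and 6.10 CPM in WT, and did not pass (log2 fold change 0.39 ± 0.58, edgeR FDR = 0.688).

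The membrane-anchored MMPs differed among themselves. Mmp16 rose (70.9 ± 2.01 CPM in TCKO and 46.1 ± 7.30 CPM in WT, SD, n = 3, log2 fold change 0.62 ± 0.12, edgeR FDR = 0.00899). Mmp15 fell (3.84 ± 0.15 CPM in TCKO and 6.56 ± 0.461 CPM in WT, log2 fold change -0.77 ± 0.18, edgeR FDR = 0.0204), and its call was lost without TCKO replicate 1 (0.0695), TCKO replicate 2 (0.0777), WT replicate 1 (0.0568) or WT replicate 2 (0.0908). Mmp17 and Mmp23 had log2 fold changes of -0.42 ± 0.21 and -0.43 ± 0.15 and did not pass (edgeR FDR = 0.218 and 0.0831). With the replicate block Mmp23 gave 0.0104, and without WT replicate 3 it gave 0.00892. Mmp28 (epilysin), a secreted MMP known from skin, had 2.43, 3.07 and 5.52 CPM in TCKO, against 13.9, 13.2 and 12.4 CPM in WT. Its log2 fold change was -1.83 ± 0.27 (edgeR FDR = 0.00324), and the groups were far apart at low counts. Mmp28 shares 466 exon bases with 1700020L24Rik on the opposite strand, which had a log2 fold change of -1.81 (edgeR FDR = 0.00459), and without strand the reads of these overlapping genes cannot be told apart. Mmp19 had 31.4, 34.2 and 22.0 CPM in TCKO and 37.6, 35.5 and 26.4 CPM in WT and did not pass (log2 fold change -0.19 ± 0.19, edgeR FDR = 0.542).

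**Figure D5:**
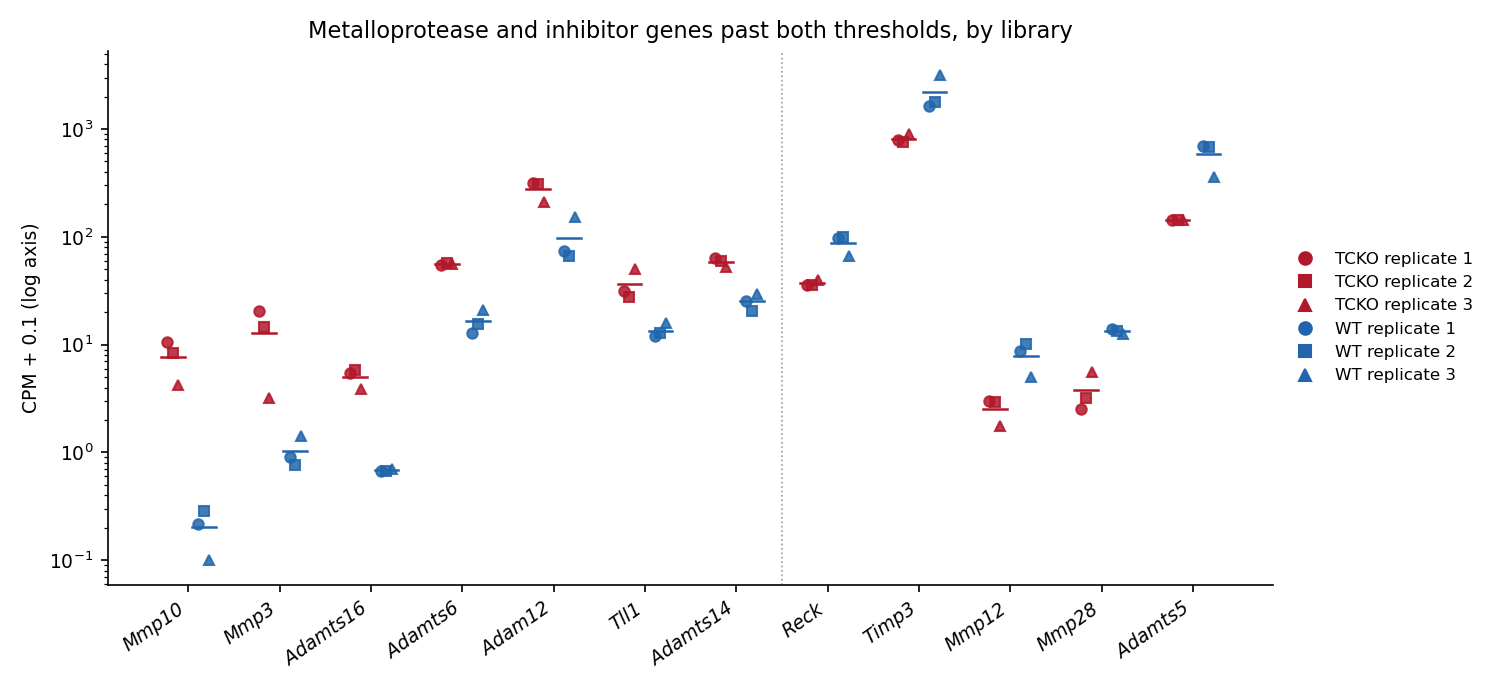
CPM + 0.1 (log axis) of the 12 genes that passed with a fold above 2, by library, with TCKO in red left of WT in blue and a line at each group mean. The 7 genes left of the dotted line were higher and the 5 right of it lower in TCKO, with no overlap for any of the 12. The Mmp10 point of WT replicate 3 is at 0 CPM.

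Both tolloid-like genes listed rose, against 9.44% of all genes tested. Tll1 had 31.3, 27.6 and 50.3 CPM in TCKO, against 11.8, 12.6 and 15.7 CPM in WT, a log2 fold change of 1.45 ± 0.24 (edgeR FDR = 0.00739). Bmp1, the main procollagen C-proteinase, had 439.6, 455 and 466 CPM in TCKO, against 290.4, 287 and 396 CPM in WT, a log2 fold change of 0.48 ± 0.13 (edgeR FDR = 0.0342). The groups did not overlap for either, and WT replicate 3 was the closest to TCKO for Bmp1. The Bmp1 call was lost without TCKO replicate 1 (0.0868), TCKO replicate 2 (0.0988), TCKO replicate 3 (0.0683), WT replicate 1 (0.13) or WT replicate 2 (0.129). Tll2 is not listed.

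Of the 3 procollagen N-propeptidases, Adamts14 rose, with 63.0, 59.0 and 52.7 CPM in TCKO, against 25.2, 20.6 and 29.7 CPM in WT. Its log2 fold change was 1.22 ± 0.14 (edgeR FDR = 0.00105), and it passed with every library left out and with replicates 1 and 2 summed (0.0409). Adamts2, the enzyme for type I procollagen whose loss gives fragile skin, had 35.4, 34.8 and 13.9 CPM in TCKO and 62.5, 59.9 and 49.8 CPM in WT. No value overlapped, yet it did not pass (log2 fold change -1.04 ± 0.34, edgeR FDR = 0.0857), though the FDR was 0.0301 with the block and 0.00334 without TCKO replicate 3. On the RPKM scale Adamts14 was above Adamts2 in TCKO (11.2 ± 1.00 and 3.00 ± 1.31 RPKM), while in WT the mean of Adamts14 was the lower one (4.84 ± 0.876 and 6.15 ± 0.722 RPKM). In WT replicate 3 Adamts14 was above Adamts2, as in TCKO (5.71 and 5.33 RPKM). Adamts3, the third of the kind, was at 0.994 to 2.54 CPM in TCKO and 1.38 to 2.27 CPM in WT and did not pass.

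The ADAMTS enzymes that cut aggrecan and versican were led by a fall in Adamts5, the main aggrecanase of mouse cartilage. It had 144, 143 and 143 CPM in TCKO, against 697, 684 and 359 CPM in WT. The TCKO libraries were almost the same, WT replicate 3 was the WT library nearest to them, and the log2 fold change was -2.02 ± 0.25 (edgeR FDR = 0.00319). Adamts1 had 157, 154 and 173 CPM in TCKO, against 302, 281 and 186 CPM in WT, a log2 fold change of -0.67 ± 0.17 (edgeR FDR = 0.0368). The replicate block gave 0.0707, and the call was lost without TCKO replicate 1 (0.114), TCKO replicate 2 (0.115), TCKO replicate 3 (0.0667), WT replicate 1 (0.112) or WT replicate 2 (0.126). Adamts4, the other classic aggrecanase, had 49.5, 52.5 and 29.1 CPM in TCKO and 27.0, 28.9 and 20.2 CPM in WT. It was not called (log2 fold change 0.78 ± 0.24, edgeR FDR = 0.0676), though the FDR was 0.00169 with the block and 0.00208 without TCKO replicate 3, and its log2 fold change was opposite in sign to that of Adamts5. Adamts9 had a log2 fold change of -1.01 ± 0.30 (edgeR FDR = 0.0535) and gave 0.0246 without TCKO replicate 3 and 0.0125 without WT replicate 3. Adamts15 and Adamts20 are not listed.

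The substrates of these enzymes are given beside them. Acan (aggrecan) was at 41.8 ± 8.29 CPM in TCKO and 274 ± 42.5 CPM in WT (log2 fold change -2.71 ± 0.17, edgeR FDR = 0.000155), and Vcan (versican) at 362 ± 13.6 CPM in TCKO and 389.5 ± 16.5 CPM in WT, which did not pass (edgeR FDR = 0.343). The 12 chondrocyte markers were lower in TCKO, as Adamts5 was. Their sum was 1069.5, 984 and 788 CPM in TCKO and 7181, 6667 and 8731 CPM in WT. Most of this sum was Col2a1, at 850, 789 and 606 CPM in TCKO and 6281, 5825 and 7820 CPM in WT. The markers differed within WT. Col2a1 and Acan (260, 240 and 322 CPM) were highest in WT replicate 3, where Adamts5 had its lowest WT value. Sox9 (75.1, 69.8 and 51.0 CPM) and Hapln1 (118, 117 and 80.0 CPM) were lowest there, as Adamts5 was. The part of these cells in the fall of Adamts5 was not tested. Adamts12, which cuts the cartilage protein COMP, rose, with 171, 158 and 169 CPM in TCKO, against 118, 113 and 91.2 CPM in WT (log2 fold change 0.63 ± 0.10, edgeR FDR = 0.00464). Adamts7, the other COMP-cleaving member, had a log2 fold change of 0.01 ± 0.29 (edgeR FDR = 0.985), which turned to -0.24 without TCKO replicate 3 and -0.23 without WT replicate 3. Comp itself was at 7.34 ± 2.48 CPM in TCKO and 54.2 ± 34.1 CPM in WT (edgeR FDR = 0.0189, 0.0651 with the replicate block).

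Among ADAMTS genes of less settled function, Adamts6 and Adamts16 rose. Adamts6, a relative of the fibrillin-associated Adamts10, had 54.4, 57.3 and 56.0 CPM in TCKO, against 12.6, 15.5 and 21.1 CPM in WT. Its log2 fold change was 1.77 ± 0.16 with the smallest FDR of the 46 (edgeR FDR = 0.000452). Adamts16 had 5.31, 5.77 and 3.76 CPM in TCKO, against 0.575, 0.569 and 0.598 CPM in WT, a log2 fold change of 3.06 ± 0.31 (edgeR FDR = 0.000648). With 5, 6 and 5 reads in WT, Adamts16 passed the low-count filter only through its TCKO libraries. The calls on Adamts6 and Adamts16 held with each library left out in turn and with replicates 1 and 2 summed (0.0264 for Adamts6 and 0.0337 for Adamts16). Adamts10 had 44.1 ± 6.52 CPM in TCKO and 59.0 ± 9.84 CPM in WT (log2 fold change -0.42 ± 0.15, edgeR FDR = 0.0887), with 0.032 without TCKO replicate 3 and 0.0253 without WT replicate 3. Adamts18 had 2.21, 1.96 and 0.773 CPM in TCKO and 6.67, 6.82 and 0.837 CPM in WT, low in replicate 3 of both genotypes, and did not pass (log2 fold change -1.55 ± 0.74, edgeR FDR = 0.197). TCKO was below WT at each replicate number, and the FDR was 0.0173 with the block and 0.00638 without WT replicate 3.

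Of the 8 tested ADAMs with an active site, 2 rose and 1 fell, against 9.44% and 8.9% of all genes tested. Adam12, a meltrin of muscle and bone precursors, had 312, 309.8 and 208 CPM in TCKO, against 74.2, 66.4 and 151 CPM in WT. The difference in log2(CPM + 0.25) was 2.14 over replicates 1 and 2 and 0.46 in replicate 3, and the log2 fold change was 1.51 ± 0.36 (edgeR FDR = 0.0396). The replicate block gave 0.136, and the fit without the low-count filter gave 0.0582. The Adam12 call was lost without TCKO replicate 1 (0.103), TCKO replicate 2 (0.106), TCKO replicate 3 (0.0593), WT replicate 1 (0.117) or WT replicate 2 (0.101), and held without WT replicate 3. Its relative Adam19 (meltrin beta) rose more evenly, with 188 ± 9.58 CPM in TCKO and 108 ± 18.3 CPM in WT (log2 fold change 0.80 ± 0.12, edgeR FDR = 0.00314). Adam8, an ADAM of myeloid cells and osteoclasts, fell, with 28.2, 31.5 and 19.6 CPM in TCKO, against 47.6, 45.7 and 46.8 CPM in WT (log2 fold change -0.82 ± 0.16, edgeR FDR = 0.0107). The macrophage marker sums were 560, 598 and 162 CPM in TCKO and 797, 804 and 399 CPM in WT. Replicate 3 had the lowest sum in both genotypes, and the lowest Adam8 value in TCKO but not in WT. The part of these cells in the value of Adam8 was not tested.

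The main sheddases did not pass. Adam10, which releases the Notch extracellular domain, had 194 ± 17.8 CPM in TCKO and 181 ± 8.77 CPM in WT (log2 fold change 0.10 ± 0.08, edgeR FDR = 0.443). Adam17, which releases tumour necrosis factor, had 92.3 ± 4.43 CPM in TCKO and 105 ± 4.04 CPM in WT (log2 fold change -0.18 ± 0.07, edgeR FDR = 0.116). Within 1 standard error the log2 fold change ran from 0.02 to 0.19 for Adam10 and from -0.25 to -0.11 for Adam17. Adam9, the most abundant ADAM here, had 329, 316 and 445 CPM in TCKO and 356, 349 and 324 CPM in WT (log2 fold change 0.08 ± 0.13, edgeR FDR = 0.702), and the sign turned to -0.09 without TCKO replicate 3. Adam15 had a log2 fold change of -0.19 ± 0.10 (edgeR FDR = 0.211, 0.0428 without TCKO replicate 3), and Adam33 one of -0.60 ± 0.20 (0.0724, 0.0397 with the replicate block).

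Of the ADAMs without an active site, which act as binding partners, Adam22 and Adam23 are known as receptors of the neuronal LGI proteins. Adam22 had 10.2, 10.4 and 5.41 CPM in TCKO and 32.1, 33.6 and 9.81 CPM in WT. WT replicate 3 lay within the TCKO range, and it did not pass (log2 fold change -1.55 ± 0.51, edgeR FDR = 0.0903), though the FDR was 0.00124 with the block and 0.00243 without WT replicate 3. Adam23 had 76.8, 78.0 and 66.3 CPM in TCKO and 93.9, 93.8 and 66.0 CPM in WT (log2 fold change -0.20 ± 0.14, edgeR FDR = 0.377, 0.0243 without WT replicate 3). Adam11, another gene of the kind, was at 0.982 to 1.11 CPM in TCKO and 1.56 to 1.72 CPM in WT and did not pass. Mme (neprilysin), a membrane peptidase used as a marker of stromal cells, had 24.0, 24.7 and 13.6 CPM in TCKO and 21.4, 20.0 and 19.6 CPM in WT, and did not pass (log2 fold change 0.03 ± 0.21, edgeR FDR = 0.946).

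Genes that act on the family were counted as well, where 9.44% of all genes tested were higher and 8.9% lower. Of 6 genes of plasminogen activation tested, a system whose product plasmin activates pro-MMPs, Plat (tissue plasminogen activator) rose, with 381, 401 and 168 CPM in TCKO, against 53.1, 54.6 and 51.9 CPM in WT (log2 fold change 2.57 ± 0.34, edgeR FDR = 0.00587). The other 5 did not pass. With the replicate block, which counts replicates 1 and 2 as separate pairs, 5 of the 6 were higher, against 12.7% of all genes in that fit. With replicates 1 and 2 summed, the edgeR FDR of the 6 ran from 0.0748 for Plat to 0.604 for Plaur, so none passed. Of 4 convertases that cut pro-forms, Furin (log2 fold change 0.47 ± 0.07) and Pcsk5 (1.35 ± 0.22) rose (edgeR FDR = 0.00303 and 0.00595). Pcsk6 had a log2 fold change of -0.78 ± 0.23 and did not pass (edgeR FDR = 0.056), but it was lower with the replicate block (0.00345), without WT replicate 3 (0.000869) and by DESeq2 (adjusted p = 0.00466). Of 7 chaperones of ADAM10 and ADAM17, Frmd8 (0.50 ± 0.08) and Tspan14 (0.51 ± 0.10) rose (edgeR FDR = 0.00554 and 0.00951). The 5 genes that rose, Plat included, passed with each library left out in turn, and with replicates 1 and 2 summed their edgeR FDR ran from 0.0748 to 0.109.

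Of 11 extracellular partners and clearance receptors, 2 rose and 3 fell, against 9.44% and 8.9% of all genes tested. The testicans differed, since Spock3 (log2 fold change 3.10 ± 0.29, edgeR FDR = 0.000818) and Spock1 (3.74 ± 0.75, 0.0157) rose while Spock2 fell (-1.38 ± 0.25, 0.0102). Spock1 had 4.86, 4.05 and 14.6 CPM in TCKO and 0.115, 0.948 and 0.598 CPM in WT, and it passed the low-count filter only through its TCKO libraries. The Spock1 call was lost without WT replicate 1 (0.0567) or WT replicate 3 (0.0555) and with replicates 1 and 2 summed (0.069). Spock3 was at 46.8, 48.1 and 45.7 CPM in TCKO, against 7.59, 6.16 and 2.51 CPM in WT. Fn1 (fibronectin) fell as well (-0.47 ± 0.13, edgeR FDR = 0.0413), and its FDR reached 0.139 with a library left out. Of 14 transcription factors known at MMP promoters, Runx3 (-1.87 ± 0.18) and Runx2 (-0.39 ± 0.08) fell and Etv4 (0.84 ± 0.18) and Runx1 (0.59 ± 0.14) rose (edgeR FDR = 0.000507, 0.0153, 0.0146 and 0.0267). With a library left out the FDR of Runx3 stayed at or below 0.00475, while that of Runx2 reached 0.0689, of Etv4 0.0703 and of Runx1 0.109. Fos, an AP-1 gene named after its values were seen, had 21.0, 23.6 and 126 CPM in TCKO and 27.1, 26.5 and 203 CPM in WT. It was highest in replicate 3 of both genotypes and did not pass (edgeR FDR = 0.767), though the FDR was 0.0231 with the block.

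Of the 83 protein-coding genes that the symbols of the rule take in GENCODE M21, 30 are not listed, among them Mmp7, Mmp20, Mmp21, Mmp24, Mmp25 and Mmp27, Adamts13, Adamts15, Adamts19 and Adamts20, Timp4, Tll2 and 18 ADAM genes. No level can be given to such a gene.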

How the data were processed

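RNA-seq libraries of osteoblasts were used, 3 labelled TCKO and 3 labelled WT. The deposited values were raw counts of reads per gene symbol, which the authors obtained on mouse build GRCm38. Sources differ on the aligner (HISAT2 in the notes of the submitters, STAR in the methods), and neither names the counter or says whether strand was used. The paper's data statement points to a different series, and this one was taken as its data from design and protocol. Columns with the authors' own comparison (mean per genotype, fold change, p-value and FDR) were not used.

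Counts were tested in R 4.3.3 with edgeR 4.0.16 (TMM, filterByExpr, robust glmQLFit and glmQLFTest, genotype as the only term), with 2-sided p-values. The FDR is the Benjamini-Hochberg adjusted p, taken over the 13630 genes that were tested, and a gene passed under 0.05. Standard errors are the log2 fold change divided by the square root of F. RPKM was computed from CPM and the merged exon length in GENCODE M21, and promoter windows came from RefSeq. The script was tested on simulated data. Alternatives were DESeq2 1.42.0, limma-voom 3.58.1, DESeq2 size factors, no filter, a replicate block, replicates 1 and 2 summed or alone, and each library left out. Deviations from the genotype mean correlated at 0.183, 0.185 and 0.322 between same-numbered TCKO and WT libraries. Replicates 1 and 2 correlated as well across numbers (0.171 and 0.235), so these values cannot show that the numbers pair the samples. The replicate block was used only as an alternative. Replicates 1 and 2 differed by more than sampling noise (chi-square per degree of freedom 2.41 in TCKO and 1.69 in WT, against 14.6 to 21.2 for pairs with replicate 3). They were counted separately, but such an excess can also arise between libraries of 1 culture and cannot show that they are independent.

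The members and gene lists were chosen with earlier results of these data known. Every member that passed is named, as is every other member with at least 5 CPM in either genotype. Of the tested members below that, 5 (Adam11, Adamts3, Adamts18, Mmp8 and Mmp9) are given with values as well, chosen after these were seen. Members set aside are given by name, and related lists by counts with up to 4 genes. The 5 printed promoters were chosen after their values were seen. Sites of overlap with other genes came from GENCODE M21.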

Additional observations from a re-analysis of the deposited data

How the results depend on the processing

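Of the 22 members that passed, 9 higher and 6 lower ones passed with each library left out in turn, and all 22 had the same sign within replicates 1 and 2 and in replicate 3. With replicates 1 and 2 summed, 4 members were higher at any fold and 4 with a fold above 2 (1.36% and 1.09% of all genes). In that fit 0 were lower at either (1.08% and 0.898% of all genes). At an unadjusted p under 0.05 in edgeR, 9 were lower there (8.8% of all genes), 6 of them with a fold above 2. With replicates 1 and 2 only, 19 were higher and 22 lower at any fold (23.6% and 22.7% of all genes), and 8 lower with a fold above 2 (4.82%). This fit has 2 libraries per genotype that are nearly alike. DESeq2 and the replicate block each gave 8 lower with a fold above 2 (3.3% and 3.57% of all genes). With a library left out, the count ran from 9 to 12 higher and 6 to 15 lower at any fold (4.4 to 12.2% and 4.15 to 11.6% of all genes). With a fold above 2 it ran from 5 to 8 higher and 4 to 8 lower (2.1 to 3.91% and 2 to 3.7% of all genes). The replicate block lost the calls on Adam12, Adamts1 and Timp2, gained those on Adam22, Adam33, Adamts2, Adamts4, Adamts18 and Mmp23, and changed no other call of the 46 tested members. DESeq2 size factors in place of TMM changed no call of the 46.

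A total of 7 members that did not pass changed sign. With replicates 1 and 2 only, Adam9 had a log2 fold change of -0.12, Adamts7 one of -0.47 and Adamts3 one of 0.13. limma-voom gave -0.027 for Mme and -0.55 for Mmp13, the replicate block gave -0.38 for Mmp13, and replicates 1 and 2 summed gave -0.069 for Mme and -0.18 for Mmp13. With a library left out, the log2 fold change ran from -0.086 to 0.18 for Adam9, -0.68 to 0.031 for Adamts3, -0.24 to 0.17 for Adamts7, -0.11 to 0.26 for Mme, -0.31 to 0.59 for Mmp13, -0.075 to 1.07 for Mmp9 and -0.056 to 0.36 for Timp1. The cause was not tested. At 8.15 to 10.6 reads per CPM, the 7 members set aside were tested only in alternatives, such as the fit without the filter.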
